A study of Homo sapiens with 2 samples.

Results

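CXCL9-positive cells were the cells with at least 1 CXCL9 UMI (a unique molecular identifier, which counts 1 captured transcript) in 6 hashtag pairs of a pool of OVCAR5 ovarian carcinoma cells. The rule found 554 such cells among the 2068 cells of pairs 3+7, 4+7, 5+6, 5+8, 6+8 and 7+8, out of 5956 cells with a readable pair and 7804 barcodes in all. The 1514 cells of the same 6 pairs with no CXCL9 UMI, called CXCL9-zero here, were the cells they were set against. The members were chosen by their CXCL9 counts, so every CXCL9 value below is a description. Per the labels all cells were OVCAR5, an established line with the epithelial origin of a carcinoma, and all carried a reporter of interferon-gamma sensing together with CFP. The pool held 18 culture conditions: unstimulated cells and cells given interferon-gamma at 1, 10 or 100 ng/ml, each for 2, 6, 12 or 24 h, and 2 frozen conditions at 24 h, unstimulated and 100 ng/ml. The sources used here tie no hashtag to a condition, so a pair carries no dose, time or freezing state below, and the data are 1 pooled sample without replicates. No p-value is given for that reason, and all intervals are at 95% and cover counting error only.

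CXCL9, CXCL10 and CXCL11 are small secreted chemokines that bind the same receptor, CXCR3, and draw activated T cells and natural killer cells into inflamed or tumour tissue. Interferon-gamma induces them through its receptor and the JAK1 and JAK2 kinases, and the same signal induces the transcription factor IRF1. The palindromic GAS element and the ISRE are DNA elements known from promoters of interferon-responsive genes, and IRF proteins bind the ISRE. CXCL9 is regarded as the member of the trio that depends most on interferon-gamma, while CXCL10 and CXCL11 also respond readily to type I interferons.

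The promoters of the 3 ligands are shown because the 3 transcripts were found in the same cells. The genes lie close to each other on chromosome 4. All 3 were found by symbol among the RefSeq promoter windows (GRCh38.p14, minus strand), and the 250 bases before each annotated start are printed from 5′ to 3′ on the coding strand. Capitals mark matches on either strand to TTCNNNGAA (GAS) or GAAANNGAA (a short core of the ISRE).
CXCL9, chr4:76007510-76007759: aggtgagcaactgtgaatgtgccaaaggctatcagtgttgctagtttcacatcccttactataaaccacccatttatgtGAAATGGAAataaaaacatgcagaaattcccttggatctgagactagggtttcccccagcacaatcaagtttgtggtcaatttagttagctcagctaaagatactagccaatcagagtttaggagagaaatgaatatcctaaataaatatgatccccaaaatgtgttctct
CXCL10, chr4:76023498-76023747: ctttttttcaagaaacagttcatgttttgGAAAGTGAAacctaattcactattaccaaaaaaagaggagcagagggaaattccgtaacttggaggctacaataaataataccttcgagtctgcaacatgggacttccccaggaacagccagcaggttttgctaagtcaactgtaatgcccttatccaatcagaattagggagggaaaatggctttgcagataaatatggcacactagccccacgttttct
CXCL11, chr4:76036071-76036320: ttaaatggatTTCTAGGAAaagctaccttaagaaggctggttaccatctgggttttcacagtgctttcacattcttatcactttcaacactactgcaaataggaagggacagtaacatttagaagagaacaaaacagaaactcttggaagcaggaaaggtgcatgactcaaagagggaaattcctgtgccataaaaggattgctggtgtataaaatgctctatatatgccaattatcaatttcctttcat
The CXCL9 window held an ISRE core match starting 171 bases before the gene start, and the CXCL10 window held one starting 221 bases before it. The CXCL11 window held a GAS match, which reads as a match on both strands, starting 240 bases before the start. In another gene annotation (GENCODE) CXCL11 reaches to 76041415, past its whole window. The matches listed for CXCL11 thus depend on the RefSeq start used, and no other start was searched. The CXCL9 and CXCL10 windows held no GAS match, and the CXCL11 window held no ISRE core match. The short ISRE core was chosen after matches to a longer pattern had been seen. Of 35116 promoter windows of the same length, 6.88% held an ISRE core match and 6.57% a GAS match. A match is a string of letters and not a shown binding site.

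CXCL9-positive cells made up 26.8% of the cells of the 6 pairs (exact Clopper-Pearson interval 24.9 to 28.8%). By pair they were 61 of 334 cells in 3+7 (18.3%), 68 of 301 in 4+7 (22.6%), 84 of 315 in 5+6 (26.7%), 61 of 318 in 5+8 (19.2%), 142 of 455 in 6+8 (31.2%) and 138 of 345 in 7+8 (40.0%). Pair 7+8 (34.8 to 45.4%) lay above all pairs but 6+8 (27.0 to 35.7%) by intervals that did not overlap. The intervals of pairs 3+7, 4+7 and 5+8 overlapped. In the other 12 pairs the share ran from 0.625 to 20.5%. Of these, 5 pairs had 0.625 to 2.76%, at median depths of 28690 to 32263.5 UMIs, nearly all from single UMIs, and such shares were read as background that free RNA can give. Every one of the 6 pairs stood above that range, at median depths of 29766 to 33246.5 UMIs. After each cell was thinned at random to 10000 UMIs, the share was 16.5% (15 to 18.2%) over the 6 pairs.

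**Figure D1:**
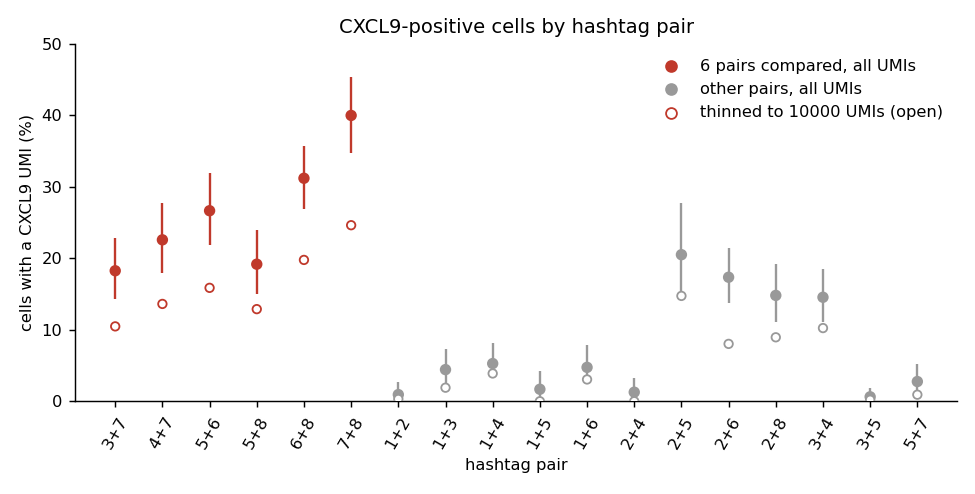
Percentage of cells with a CXCL9 UMI in each of the 18 hashtag pairs (horizontal axis), with exact 95% binomial intervals; open points show the share after thinning each cell to 10000 UMIs. The 6 pairs compared, in red, lie between 18.3 and 40.0%, and the other 12, in grey, between 0.625 and 20.5%.

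CXCL9 transcripts lay unevenly over the positive cells. The 554 cells held 2698 CXCL9 UMIs, with a median of 2 per cell and up to 65. A single UMI was found in 201 of them (36.3%), which together held 7.45% of the UMIs. There were 93 cells with 2 UMIs, 50 with 3, and 210 with at least 4. Of these last, 75 had at least 10 UMIs and 24 at least 20. The 56 cells with the most CXCL9 held 43.1% of the UMIs. The rule turns on 1 UMI, so the 201 cells with 1 UMI are the members just inside it and the 1514 cells with 0 stand just outside it. Few cells lay near the depth minimum: 46 cells of the 6 pairs were left out for having under 10000 UMIs, 3 of them with a CXCL9 UMI, and none of the 4 cells with 10000 to 11000 UMIs was a member.

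The label OVCAR5 carcinoma cell was checked against epithelial markers. KRT8 and KRT18, keratins of simple epithelia, had a UMI in 100% of both the 554 CXCL9-positive and the 1514 CXCL9-zero cells after thinning. KRT7 had one in 80.9 and 78.3% of them, and EPCAM in only 41.7 and 34.0%. VIM, on the mesenchymal list, averaged 2858 and 2971 CPM, above KRT18 at 2342 and 2309 CPM. The markers of other cell types, summed over thinned cells, were at or near 0 for T and natural killer cells (3 UMIs in CXCL9-positive and 5 in CXCL9-zero cells, with PTPRC, CD3E, CD2, NKG7, GZMB, IFNG and TRAC at 0), endothelial cells (4 and 2 UMIs, with VWF and CDH5 at 0) and fibroblasts (2 and 8 UMIs, with COL1A2, COL3A1 and LUM at 0). The 10 myeloid markers gave 31.1 to 47.1 CPM per pair in CXCL9-positive cells and 33.3 to 47.8 CPM in CXCL9-zero cells, mostly from CD68, with TYROBP, CD163, AIF1 and MRC1 at 0. A list of 5 genes of a small SERPINB3-high cell group stood apart, with 77 UMIs in CXCL9-positive and 11 in CXCL9-zero cells. Its level was 9.15 to 36.1 CPM per pair in CXCL9-positive and 0 to 1.56 CPM in CXCL9-zero cells. CDH1, the epithelial cadherin, had 17 and 4 UMIs, and without the KRT81-high cells described next it had 0 and 2. The 5-gene list then averaged 0.260 and 0.304 CPM. CPM here are UMIs per 1000000 UMIs, taken from cells thinned to 10000 UMIs. Pooled over the 6 pairs, CXCL9-positive and CXCL9-zero cells had median depths of 31682 and 31017 UMIs, 3082.5 and 3096 genes after thinning, and 12.1 and 11.5% mitochondrial UMIs. Within pairs the depths differed more in some, as in 4+7 (34601.5 and 32294 UMIs) and 3+7 (34687 and 32516 UMIs). Only in 5+6 were CXCL9-positive cells the shallower ones (31917.5 and 32282 UMIs). The hashtag after the top pair held a median of 0.694 and 0.751% of hashtag UMIs. Cells over 60000 UMIs, where doublets would be sought, made up 1.08 and 0.793%.

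A small group of cells stood apart within the positive cells. In the 6 pairs 37 cells had at least 50 summed UMIs of KRT81, LDHB and S100A9, and no other cell had more than 3, while the lowest of the 37 had 105. KRT81 is a hair-type keratin, LDHB a lactate dehydrogenase subunit and S100A9 a calcium-binding protein. Of these KRT81-high cells 35 were CXCL9-positive (94.6%, interval 81.8 to 99.3%), against 519 of the 2031 other cells (25.6%, 23.7 to 27.5%). They made up 6.32% of the CXCL9-positive cells and held 15.1% of the CXCL9 UMIs. CXCL9 was at 303 CPM in KRT81-high cells and 37.4 CPM in the others, and CXCL11 at 195 and 160 CPM, whereas CXCL10 was at 59.5 and 241 CPM, IRF1 at 365 and 969 CPM, and HLA-DRA, an MHC class II chain, at 21.6 and 174 CPM. Their depth was higher (median 42756 and 31115 UMIs) and their mitochondrial share lower (5.01 and 11.7%). After thinning, 81.1% of KRT81-high and 15.4% of other cells had a CXCL9 UMI. They were in all 6 pairs, at 4 to 9 cells each. In the 4 other pairs with over 30 CXCL9-positive cells each (2+5, 2+6, 2+8 and 3+4), 18 of 27 such cells were CXCL9-positive (66.7%), against 183 of 1210 others (15.1%). In the 5 pairs with background CXCL9 shares, only 1 of 27 such cells was CXCL9-positive (3.70%), against 22 of 1653 others (1.33%). The share of KRT81-high cells with CXCL9 therefore differed between pairs. The group was defined after its values were seen, and it was not named as a cell type. Whether these cells are OVCAR5, as labelled, was not tested, so ratios over all cells may mix cells of more than 1 kind. Results below are with all cells unless stated, and many are also given without its 37 cells. Ratios for the 4 other pairs leave out such cells throughout.

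CXCL10 and CXCL11 were higher in CXCL9-positive cells in every pair. CXCL10 had a lowest, median and highest pair level of 266, 591 and 631 CPM in CXCL9-positive cells, against 70.3, 114 and 186 CPM in CXCL9-zero cells. The levels of CXCL9-positive and CXCL9-zero cells did not overlap between pairs. The ratio of the means was 4.49 (535 and 119 CPM, interval 4.23 to 4.76), and by pair it ran from 3.19 in 5+8 to 8.30 in 3+7. Without KRT81-high cells it was 4.76 (4.49 to 5.06). CXCL11 had 210, 323 and 391 CPM as its lowest, median and highest pair level in CXCL9-positive cells, against 55.7, 99.2 and 134 CPM in CXCL9-zero cells. Again no pair of CXCL9-zero cells reached the lowest pair of CXCL9-positive cells. The CXCL11 ratio was 3.24 (3.02 to 3.48), and 3.33 without KRT81-high cells. In the 4 other pairs, also without such cells, the ratios were 4.06 (3.77 to 4.36) for CXCL10 and 3.51 (3.06 to 4.03) for CXCL11, higher in all 4 pairs.

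The other ligands were found in CXCL9-positive cells more often than in CXCL9-zero cells. After thinning, CXCL10 had a UMI in 63.0% of CXCL9-positive cells (58.8 to 67.0%) and in 28.7% of CXCL9-zero cells (26.5 to 31.1%). CXCL11 had one in 74.7% of CXCL9-positive cells (70.9 to 78.3%) and in 37.1% of CXCL9-zero cells (34.6 to 39.5%). Before thinning these shares were 73.8 and 41.5% for CXCL10, and 90.1 and 56.3% for CXCL11. Both other ligands were found in 54.0% of CXCL9-positive cells and 17.6% of CXCL9-zero cells. Neither was found in 16.2% and 51.8% of them. Most CXCL9-positive cells also held CXCL11.

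The more CXCL9 UMIs a cell held, the higher its level of the other ligands. Without KRT81-high cells, CXCL10 averaged 119 CPM in 1512 cells with 0 CXCL9 UMIs, 375 CPM in 196 cells with 1, 520 CPM in 139 cells with 2 to 3 and 807 CPM in 184 cells with at least 4. CXCL11 averaged 98.0, 192, 318 and 482 CPM in the same classes. IL32, a cytokine induced in many inflamed tissues, averaged 77.2, 119, 185 and 209 CPM, and OASL, an oligoadenylate synthetase-like antiviral protein, 49.7, 73.9, 111 and 154 CPM. IRF1 differed far less, at 945, 988, 1017 and 1085 CPM. Median depth was alike, from 30554 to 31655 UMIs over the 4 classes. A class held as few as 13 cells in a pair, so single pair values within classes were not compared.

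**Figure D2:**
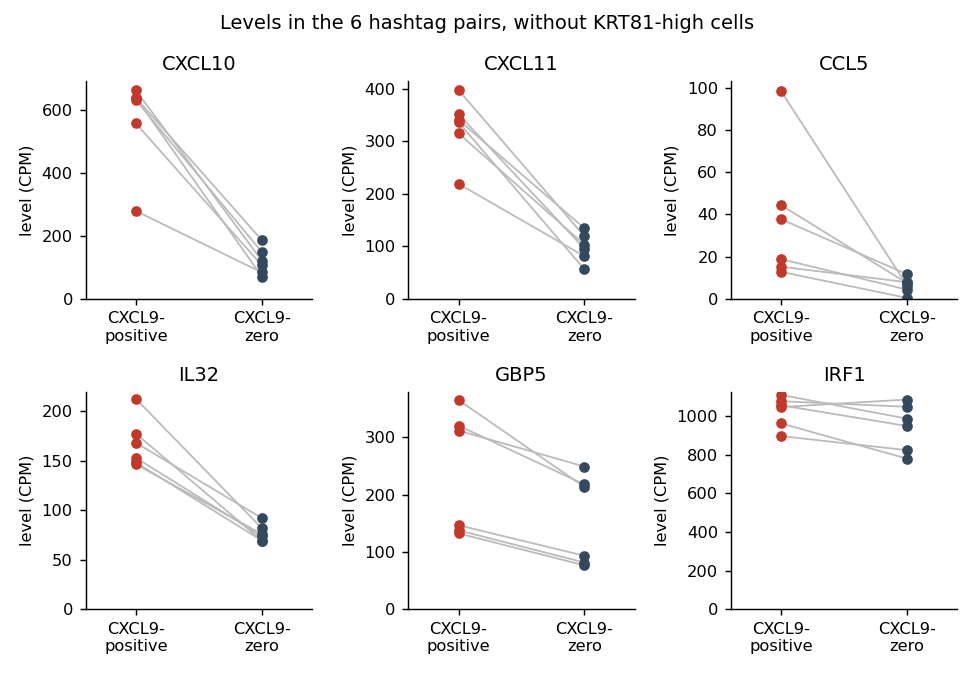
Level in CPM (vertical axis, from 0) of 6 genes in CXCL9-positive (red) and CXCL9-zero (dark) cells without KRT81-high cells; each line joins the values of 1 of the 6 hashtag pairs. CXCL10 and CXCL11 do not overlap between the cell groups, while for IRF1 5 of 6 pairs were higher in CXCL9-positive cells and the ranges overlap.

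Seen from the other side, the share of CXCL9-positive cells followed the levels of some interferon-response genes and not of others. Cells were sorted into 4 bins of equal size within each pair by another thinned measure, without KRT81-high cells. After thinning, 37.3% of these cells had a CXCL10 UMI, 46.2% a CXCL11 UMI and 61.7% an HLA-DRA UMI, as means of the pair shares. The rest tied at 0 for that gene, so differences between lower bins made of tied cells carry no meaning. By CXCL10, 14.5, 14.8, 22.6 and 50.5% of the cells were CXCL9-positive from the lowest to the highest bin. By CXCL11 the shares were 11.7, 15, 24.6 and 51.1%. By IDO1, the enzyme that degrades tryptophan, they were 15.9, 22.1, 28.1 and 36.2%, and by the summed guanylate-binding proteins 15.3, 22.7, 25.9 and 38.4%. By IRF1 they were 20.2, 27.3, 27.5 and 27.3%, the lowest bin being below the rest by intervals that overlapped slightly. By HLA-DRA they were 29.2, 22.9, 24.4 and 25.7%, and by G2/M phase genes 26.0, 23.7, 28.5 and 24.0%, with overlapping intervals in each. Raw depth gave 24.1, 25.7, 26.7 and 25.7%. With CXCL9 counted after thinning, the same depth bins gave 18.2, 16.4, 15.9 and 10.9%. Membership by all UMIs was thus not independent of depth, since at equal depth the deeper cells held CXCL9 less often. By mitochondrial share, 20.4, 26.9, 25.7 and 29.3% of the cells were CXCL9-positive. In the top bin by CXCL10 or CXCL11, close to an equal number of cells had CXCL9 and lacked it, so a high level of the other ligands went with CXCL9 in many cells but not in all.

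**Figure D3:**
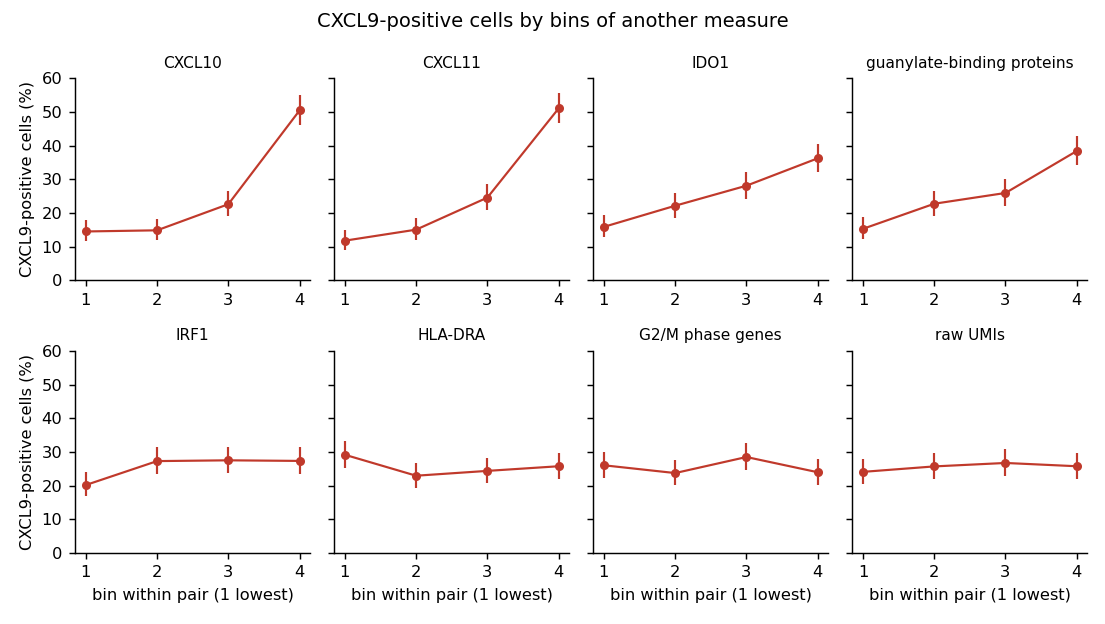
Percentage of cells with a CXCL9 UMI (vertical axis, exact 95% binomial intervals) in 4 equal bins of the cells of each pair, sorted by the measure named over each panel (1 lowest, 4 highest), without KRT81-high cells. The share runs from 14.5 to 50.5% across CXCL10 bins, and from 22.9 to 29.2% across HLA-DRA bins with no steady order. Cells without a thinned UMI of CXCL10, CXCL11 or HLA-DRA tie in the lower bins of that gene, where their order carries no meaning.

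Over all genes, few stood apart. A gene was called lower when the ratio of CXCL9-positive to CXCL9-zero level was at most 0.8 and below 1 in all 6 pairs, and higher when the inverse ratio was at most 0.8 and the ratio above 1 in all 6, among the 7716 genes with at least 200 UMIs in the thinned cells. With all cells 157 genes (2.03%) were called higher and 84 (1.09%) lower. Without KRT81-high cells 101 (1.31%) were called higher and 93 (1.21%) lower. Of the 157 genes 74 were also called without KRT81-high cells, and 83 were called only with them. The median ratio of all genes tested was 0.997, and 0.987 without KRT81-high cells. The cells share libraries, pairs and handling, and genes are not replicates, so these counts describe this pool.

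Genes whose ratio came from the KRT81-high cells led the list of largest ratios. S100A9 had a ratio of 29.3, KRT81 26.0 and LDHB 21.2 with all cells, and 0.443, 1.23 and 0.580 without the 37 cells. MAL2, TMEM158, SLPI, PMEPA1 and S100A2 had ratios from 2.46 to 3.18 with all cells and from 0.855 to 1.33 without them. C15orf48 and AGR2 moved less, at 2.33 and 2.13 with all cells and 2.1 and 1.67 without them, but neither remained higher in all 6 pairs. The other 5 of the 15 largest ratios, CXCL10, CXCL11, CCL5, OASL and IL32, were called both with and without the KRT81-high cells. TRBC2, a T cell receptor constant segment named here after its values were seen, had 50 UMIs in CXCL9-positive cells and 1 in CXCL9-zero cells. Without the KRT81-high cells it had 0 in CXCL9-positive cells, while PTPRC and CD3E were at 0 throughout.

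**Figure D4:**
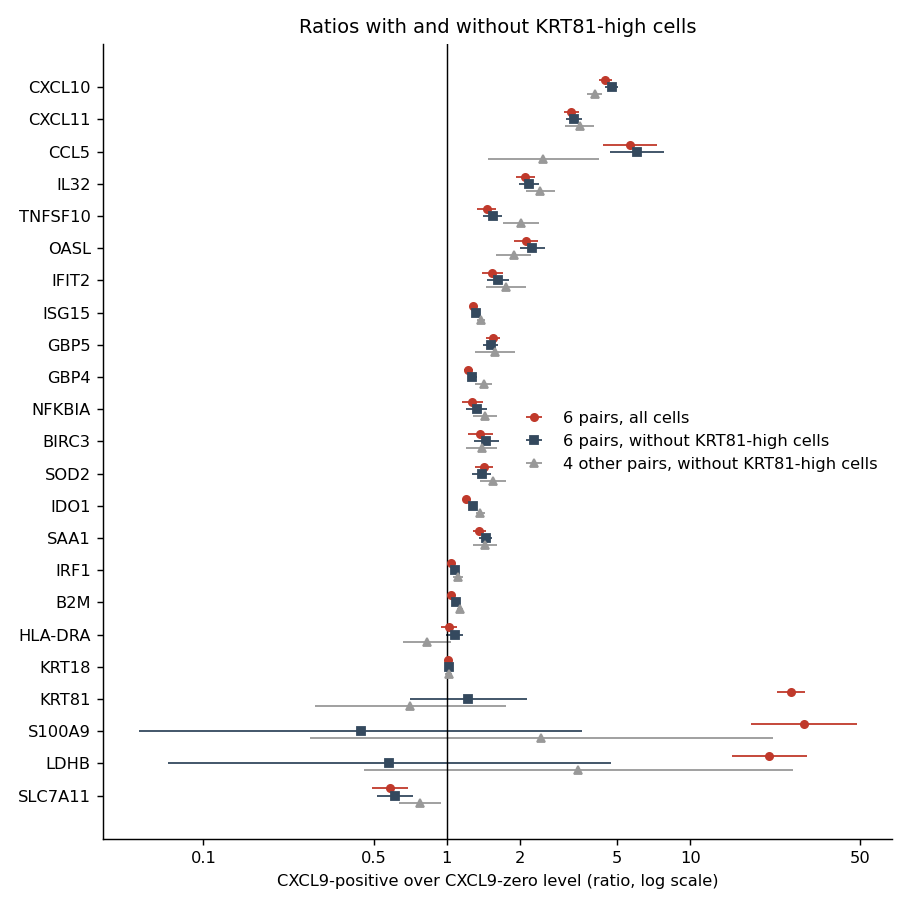
Ratio of the level in CXCL9-positive cells to that in CXCL9-zero cells (horizontal log axis) with 95% counting intervals, for the 6 pairs with all cells (red), the 6 pairs without KRT81-high cells (dark) and the 4 other pairs without such cells (grey). CXCL10, CXCL11 and IL32 keep their place in all 3, while KRT81, S100A9 and LDHB exceed 20 only with all cells.

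Among other secreted signals, 4 of the 10 measured chemokine and cytokine genes were called higher and 1 lower (of 33 on the list, 10 reached the minimum). Over all genes tested, 2.03% were called higher and 1.09% lower. CCL5, a chemokine for T cells and monocytes, had 11.5, 26.6 and 93.4 CPM as its lowest, median and highest pair level in CXCL9-positive cells, against 0.366, 6.79 and 11.6 CPM in CXCL9-zero cells. Its ratio was 5.69 (4.40 to 7.34), but it rested on few cells: 6.50% of CXCL9-positive and 2.18% of CXCL9-zero cells had a UMI after thinning, and 8.30 and 3.50% before. By pair its ratio ran from 1.83 in 5+6, with an interval that spanned 1, to 31.3 in 3+7, where CXCL9-zero cells held 1 UMI. In the 4 other pairs it was 2.50 (1.48 to 4.22), higher in 3 of 4.

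IL32 had 139, 159 and 203 CPM as its lowest, median and highest pair level in CXCL9-positive cells, against 69.3, 74.9 and 92.2 CPM in CXCL9-zero cells, without overlap. Its ratio was 2.1 (1.92 to 2.3) in the 6 pairs and 2.43 (2.11 to 2.79) in the 4 others. TNFSF10, the death ligand TRAIL, averaged 135 and 92.8 CPM in CXCL9-positive and CXCL9-zero cells (ratio 1.46, 1.33 to 1.59), and its ratio was 2.02 in the 4 other pairs. Its pair levels overlapped between the cell groups, at 63.9 to 217 CPM in CXCL9-positive and 48.7 to 132 CPM in CXCL9-zero cells. TNFSF13B, the B cell survival factor BAFF, had a ratio of 1.35 (1.21 to 1.51). IL7, a lymphocyte survival factor, was called lower at 7.68 and 10.9 CPM (0.703, 0.497 to 0.994), on 45 and 164 UMIs.

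Antiviral genes differed as a subset. Of 37 tested, 7 were called higher with all cells (18.9% of those tested) and 9 without KRT81-high cells, namely IFIT2, IFIT3, OASL, RSAD2, ISG15, ISG20, IFI44, IFIH1 and CMPK2. None was called lower, and the median ratio of the 37 was 1.15. Of all genes tested, 2.03% were called higher with all cells and 1.31% without KRT81-high cells. OASL had 65.5, 96.8 and 149 CPM as its lowest, median and highest pair level in CXCL9-positive cells, against 39.8, 47.3 and 67.1 CPM in CXCL9-zero cells, so that the ranges overlapped at 1 pair (5+6). Its ratio was 2.12 (1.89 to 2.38). IFIT2, which binds viral RNA, had a ratio of 1.54 (1.39 to 1.71), and ISG15, a ubiquitin-like modifier, 1.28 (1798 and 1405 CPM). By pair the IFIT2 ratio ran from 1.12 in 7+8 to 2.32 in 4+7, and its intervals spanned 1 in 3+7, 5+6 and 7+8. IFITM3 and IFI27, which are abundant interferon-stimulated genes, had ratios of 1.04 and 1.05 and were not called. RSAD2, the antiviral enzyme viperin, missed the call with all cells, having equal levels in 1 pair, and had a ratio of 1.94 without KRT81-high cells. In the 4 other pairs ISG15 and ISG20 were higher in all 4, OASL, IFIT2 and IFI44 in 3, and RSAD2 and CMPK2 in 2.

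Cells with high antiviral transcripts were more often CXCL9-positive. Of 146 cells with at least 3 summed thinned UMIs of RSAD2, OASL and HERC5, none of them KRT81-high, 65 were CXCL9-positive (44.5%, 36.3 to 53%), against 454 of 1885 other cells (24.1%, 22.2 to 26.1%). These cells made up 12.5% of the CXCL9-positive cells that were not KRT81-high. With both small groups left out, 83 genes were called higher. The CXCL10 ratio without the antiviral-high cells was 4.21.

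Guanylate-binding proteins, interferon-induced GTPases that attack vacuoles of intracellular microbes, were called higher in part. Of 6 tested, 3 were called with all cells (GBP1, GBP2 and GBP5) and 3 without KRT81-high cells (GBP2, GBP4 and GBP5), and the median ratio of the 6 was 1.27. The share of all genes called higher was 2.03% with all cells and 1.31% without KRT81-high cells. GBP5 had 145, 235 and 362 CPM as its lowest, median and highest pair level in CXCL9-positive cells, against 78.4, 154 and 249 CPM in CXCL9-zero cells. The ranges overlapped because pairs differed from each other more than the cell groups did, yet each pair was higher in CXCL9-positive cells. Its ratio was 1.55 (1.45 to 1.66). GBP4 averaged 553 and 450 CPM (ratio 1.23, 1.17 to 1.28), and GBP1 636 and 484 CPM (1.32, 1.26 to 1.37). The GBP1 ratio was 1.2 without KRT81-high cells, and 1.4 in the 4 other pairs.

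Targets of NF-kB, the factor behind many inflammatory genes, were also higher as a subset. Of 15 tested, 5 were called with all cells and 6 without KRT81-high cells, namely RELB, NFKBIA, NFKBIZ, TNIP1, BIRC3 and SOD2, with none lower. The median ratio of the 15 was 1.21. Among all genes tested, 2.03% were called higher with all cells and 1.31% without KRT81-high cells. NFKBIA, the inhibitor that NF-kB induces against itself, averaged 110 and 86.2 CPM (ratio 1.27, 1.15 to 1.41). BIRC3, an inhibitor of apoptosis, averaged 83.8 and 61.0 CPM (1.37, 1.22 to 1.54). SOD2, the mitochondrial superoxide dismutase, averaged 150 and 105 CPM (1.42, 1.31 to 1.55). In the 4 other pairs these 3 were higher in all 4, at 1.44, 1.39 and 1.54. There TNIP1 was at 1.27 (1.11 to 1.45), higher in 3 of 4, and RELB at 1.32 (0.975 to 1.78), higher in 2 of 4. ICAM1, an adhesion molecule that NF-kB and interferon-gamma both induce, was not called, at 140 and 143 CPM (0.976, 0.895 to 1.06, lower in 6 of 6 pairs). Its direction turned without KRT81-high cells (1.03, 0.941 to 1.12, higher in 6 of 6), and it was 1.171 (1.054 to 1.302) in the 4 other pairs, higher in all 4.

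Immune-modulating and acute phase genes moved in part. IDO1 had 2111, 3196 and 4689 CPM as its lowest, median and highest pair level in CXCL9-positive cells, against 1498, 2489 and 4161 CPM in CXCL9-zero cells. The ranges overlapped widely and the ratio was 1.2 (1.18 to 1.23), under the fold required. It was 1.28 without KRT81-high cells, where the gene was called, and 1.37 in the 4 other pairs. LGALS9, the galectin-9 gene, was called at 21.3 and 15.2 CPM (1.4, 1.12 to 1.75). Of 8 complement and acute phase genes tested 3 were called higher, among them the serum amyloid genes SAA1 (284 and 209 CPM, 1.36) and SAA2 (106 and 72.0 CPM, 1.47). By the same rule 2.03% of all genes tested were called higher. SAA1 and SAA2 are near-identical, and 3' reads can be split between them.

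Core genes of the interferon-gamma response had ratios close to 1 in the 6 pairs. None of 17 interferon-responsive transcription factors, 19 MHC class I pathway genes, 10 MHC class II pathway genes or 7 negative regulators was called in either direction, with median ratios of 1.05, 1.03, 1.06 and 1.01. Counts of 0 lie near the background, since 2.03% of all genes tested were called higher and 1.09% lower. In the 4 other pairs the summed levels of the transcription factors and of the MHC class I pathway were higher in all 4, at 1.09 (1.06 to 1.13) and 1.10 (1.08 to 1.12). The MHC class II pathway was at 0.996 there (0.933 to 1.06). IRF1 had 851, 1011 and 1069 CPM as its lowest, median and highest pair level in CXCL9-positive cells, against 777, 968 and 1086 CPM in CXCL9-zero cells. These ranges nearly coincide, and IRF1 was higher in CXCL9-positive cells in 4 of 6 pairs (ratio 1.04, 1.01 to 1.08). HLA-DRA averaged 167 and 164 CPM (1.02, 0.943 to 1.10, and 0.831 in the 4 other pairs), and B2M, the invariant chain of MHC class I, 5015 and 4837 CPM (1.04, 1.02 to 1.05).

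Without KRT81-high cells most of these ratios lay slightly above 1. IRF1 was at 1.08 (1.05 to 1.12, higher in 5 of 6 pairs) and B2M at 1.09 (1.07 to 1.10, higher in 6 of 6). SOCS1, the inhibitor of JAK kinases, was at 1.09 with all cells (0.972 to 1.23) and 1.16 without KRT81-high cells. Of the 6 receptor and kinase genes tested, JAK2 alone was called, and only without KRT81-high cells (1.36, 1.12 to 1.65), but in the 4 other pairs it was at 0.898. Without KRT81-high cells 1.31% of all genes tested were called higher. IFNGR1, the ligand-binding receptor chain, was at 15.3 and 15.4 CPM (0.995, 0.765 to 1.29).

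Counts of growth genes called lay near the share of all genes, which was 2.03% higher and 1.09% lower. None of 31 S phase genes was called, and of 42 G2/M phase genes only CDK1, the mitotic kinase, was called with all cells and none without KRT81-high cells. Summed G2/M transcripts had a ratio of 1.00 in the 6 pairs and 0.849 (0.827 to 0.872) in the 4 others, where 3 of 4 pairs were lower. None of 11 housekeeping genes was called, and their summed ratio was 1.02. Of 9 epithelial genes tested 4 were called with all cells (KRT81, EPCAM, KRT7 and KRT19) and only KRT19 without KRT81-high cells (1.28, and 1.07 in the 4 other pairs). Summed mesenchymal genes were at 0.963 (0.945 to 0.981) with all cells and 1.01 (0.993 to 1.03) without KRT81-high cells. No mesenchymal gene of 6, no stress gene of 12 and no growth arrest gene of 9 was called with all cells. CDKN1A, the p53-induced cell cycle inhibitor, was called without KRT81-high cells (1.69). Of the remaining lists, 1 of 13 cell death genes (APOL3, 1.31) and 2 of 12 immediate early genes (JUNB, 1.34, and JUND, 1.26) were called higher with all cells. So were 2 of 11 cholesterol synthesis genes (MVD, 1.34, and SQLE, 1.26). Without KRT81-high cells JUND was no longer called (1.21), while APOL3, JUNB, MVD and SQLE were.

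**Figure D5:**
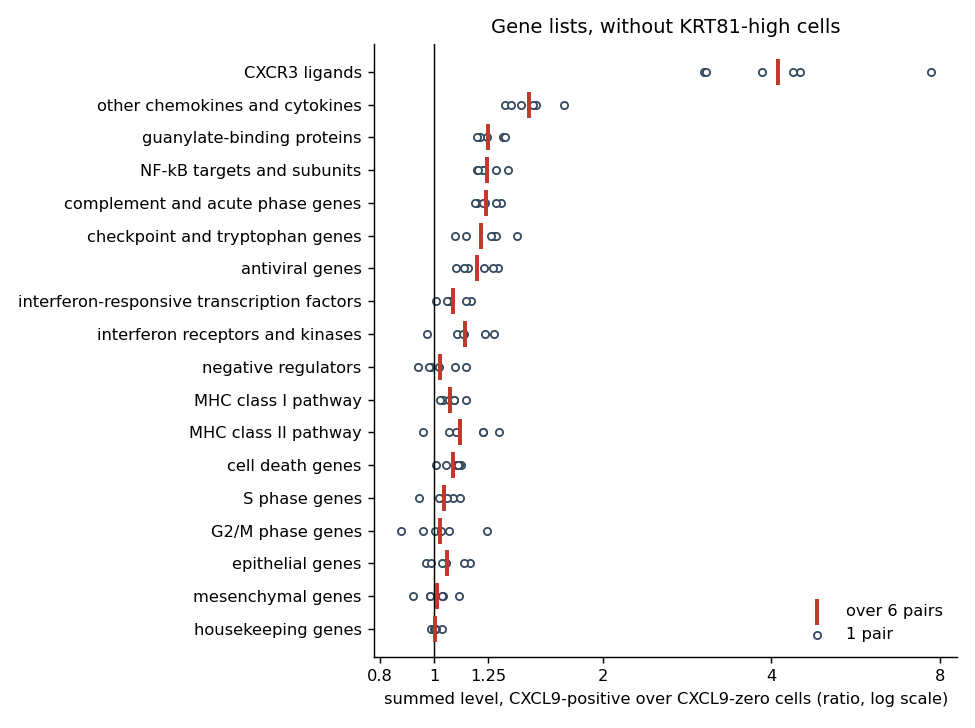
Ratio of the summed level of each gene list in CXCL9-positive cells to that in CXCL9-zero cells (horizontal log axis), without KRT81-high cells; open points are the 6 hashtag pairs and red bars the ratio of the means over pairs. The 2 other CXCR3 ligands stand at 4.12, chemokines and cytokines at 1.48, complement and acute phase genes at 1.24 and housekeeping genes at 1.00.

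Genes called lower were mostly of low level. The 10 smallest ratios were those of PDE1C, ZNF749, SLC7A11, CEP70, AC008443.1, NDUFAF7, LIG3, ZNF33B, NLN and LRP11, at 0.516 to 0.658, and 8 of them had at most 102 UMIs in CXCL9-positive cells. SLC7A11, the cystine importer of glutathione synthesis, had 21.3, 31.0 and 48.5 CPM as its lowest, median and highest pair level in CXCL9-positive cells, against 51.5, 54.5 and 60.4 CPM in CXCL9-zero cells. The ranges did not overlap, on 178 and 841 UMIs, and the ratio was 0.584 (0.492 to 0.692). In the 4 other pairs it was 0.776 (0.637 to 0.946), with 1 of 4 higher in CXCL9-positive cells. NLN, the peptidase neurolysin, had 27.9, 33.6 and 37.7 CPM against 46.8, 51.0 and 56.7 CPM (0.654, 0.553 to 0.774), again without overlap, and 0.782 (0.631 to 0.971) in the 4 other pairs, where 2 of 4 were higher in CXCL9-positive cells. The direction of CEP70, a centrosomal protein, was not stable, at 0.606 with the thinning used and 1.10 with another random draw. Among genes with at least 2000 UMIs only RPL22L1 (0.760), ETF1 (0.737) and CHORDC1 (0.780) were called lower.

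The comparison was repeated within pairs 2+5, 2+6, 2+8 and 3+4, which took no part in it, with 183 CXCL9-positive and 1027 CXCL9-zero cells that were not KRT81-high. Of the 101 genes called higher in the 6 pairs without KRT81-high cells, 78 (77.2%) were above 1 there, as were 43.3% of all genes tested. Their median ratio was 1.22 in the 4 pairs and 1.34 in the 6. In the 4 pairs 243 genes (3.15% of those tested) were called higher, and 24 were called in both, which is 23.8% of the 101 and 9.88% of the 243. They were CXCL10, CXCL11, IL32, TNFSF10, TNFSF13B, TNFSF9, GBP2, GBP4, GBP5, IDO1, ISG15, ISG20, BIRC3, NFKBIA, SOD2, SAA1, SAT1, SNCG, SECTM1, TMEM173, PLAAT4, PLXNB2, LMO7 and IGF1R. Of the 93 genes called lower in the 6 pairs, 67 (72.0%) were below 1 in the 4 others, as were 56.7% of all genes tested. In the 4 pairs 494 genes (6.40%) were called lower, and 15 were called in both. With fewer cells and 4 pairs in place of 6, the rule was passed more easily there, and the same pool and libraries lie behind both comparisons.

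CXCL9 and its companions were among the most unevenly distributed transcripts of their level. Without KRT81-high cells and after thinning, the variance of CXCL9 UMIs over cells was 3.79 times its mean at the median pair (3.62 to 5.19), against a median of 1.04 for 1221 genes of like mean, of which 1 was higher. If its UMIs fell at random over the cells of each pair, 29.9% of cells would have held at least 1, and 15.1% did. Both are means of the pair shares. The ratio of variance to mean was 13.9 for CXCL10, 4.79 for CXCL11 and 8.24 for CCL5, and no gene of like mean exceeded any of these 3. For IRF1 it was 2.15, with 14 of 62 genes of like mean higher. Unevenness was not confined to the chemokines. The ratio was 8.69 for IDO1, with 0 of 27 genes of like mean higher. It was 3.31 for GBP5, with 5 of 381 higher, and 2.22 for HLA-DRA, with 9 of 418 higher.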

How the data were processed

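The files hold 1 gene expression and 1 hashtag library of a single pool, in 1 matrix in which both share all 7804 barcodes. The deposited UMI counts, for 36601 genes and 8 hashtags, are whole numbers to which no scaling was applied. Per the file headers Cell Ranger 5.0.1 made the matrix; per the submitters' processing notes it was version 2.1.1, with GRCh38, and which applies is unknown.

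Cells with at least 500 genes, 10000 gene UMIs and at most 20% mitochondrial UMIs were kept. A pair was read when the second hashtag held at least 5 times the third plus 1 UMI, which also leaves out cells of several pairs; no other doublet caller was run. Each cell was thinned to 10000 UMIs (seed 1), and levels are mean UMIs per cell scaled to CPM. Free RNA was not subtracted. Ratios divide the mean of the 6 pair levels of CXCL9-positive cells by that of CXCL9-zero cells, each pair counting equally, with Poisson intervals of the log ratio, exact conditional intervals within a pair, and exact Clopper-Pearson intervals for shares. CXCL9 itself was left out of all counts of genes. Genes of like mean are those with a close mean UMI count per cell.

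Named genes are the 15 largest and 10 smallest ratios among genes of 1 direction in all 6 pairs, list members called, and the 3 most abundant members of each list; others were named after their values were seen. A few genes that this rule covers are not reported here. The members, lists and rule were chosen with earlier results of these data known, and the KRT81-high cells and 4 other pairs after the data were seen. Calculations were tested on simulated sums. Alternatives covered membership, the hashtag and cell filters, depth, cell cycle, small cell groups, pairs and the gene rule. Python 3.11.15, numpy 2.4.6, scipy 1.17.1 and pandas 2.3.3 were used.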

Additional observations from a re-analysis of the deposited data

Results flagged for a closer look

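CXCL9 UMIs were also present outside the cells compared. Of 807 barcodes that failed the cell filter, 30 (3.72%, exact interval 2.52 to 5.26%) held a CXCL9 UMI, where a count of 0 would allow up to 0.372%. Their median depth was 4839 UMIs. Of 1041 cells that passed the filter without a readable hashtag pair, 262 (25.2%, 22.6 to 27.9%) held one, where a count of 0 would allow up to 0.288%. Their median depth was 52517 UMIs. Neither set can be placed in a pair, so they entered no comparison.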

How the results depend on the processing

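How members were chosen moved the share of CXCL9-positive cells most: it was 16.5% with CXCL9 counted after thinning, 18.9% with at least 2 UMIs, and 24.1% without KRT81-high and antiviral-high cells, against 26.8%. The CXCL10 ratio was 3.67 with CXCL9 counted after thinning and 5.30 with at least 2 UMIs, where the CXCL11 ratio was 4.03. The CXCL10 ratio was 4.21 without antiviral-high cells. Leaving out 1 pair in turn gave shares of 24.1 to 28.4%, CXCL10 ratios of 4.07 to 4.93, CXCL11 ratios of 3.004 to 3.48, 197 to 224 genes higher and 128 to 148 lower; with 5 pairs, fewer directions have to match. Genes called higher numbered 101 without KRT81-high cells, 83 without KRT81-high and antiviral-high cells, 306 with a minimum of 20 UMIs, 23 with 2000, 36 at 1.5-fold and 384 by fold alone. Genes called lower numbered 137 with members of at least 2 UMIs, and 190, 3, 10 and 278 under the last 4 of these settings. Without KRT81-high cells the direction turned for 4 called genes, S100A9 (0.443), LDHB (0.580), PMEPA1 (0.959) and S100A2 (0.855). Without antiviral-high cells too, these were 0.461, 0.661, 0.936 and 0.820. Among low genes, CEP70 turned with another thinning draw (1.10), and MIGA1 with that draw (1.06), with 20000 UMIs per cell (1.01) and with no thinning (1.01); the cause was not tested. Of 2812 other values of genes and lists, 2504 stayed within their counting interval and 296 moved beyond it. Of these 2800 values 134 crossed 1, for 32 genes and lists, 25 of them beyond the interval. Without KRT81-high cells 12 crossed, among them ICAM1 (1.03), VIM (1.01) and the mesenchymal list (1.01). CXCL10 and CXCL11 kept ratios above 3 under all 19 alternatives each. No paired analysis was possible because the libraries are 1 pool without replicate numbers. A single pool without replicates limits every value to these cells. Membership used all UMIs of a cell, and thinning to 10000 UMIs per cell limits detection only in the thinned levels and shares.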
